A study of Bos taurus with 12 samples.

Results

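Neutrophils and mucosal epithelium express host defence genes, and 8 genes of the one, the other or both were followed through the uterine lining, or endometrium, of dairy cows (Bos taurus) kept on pasture. The genes were S100A8, S100A9, S100A12, LTF, SAA3, TAP, CXCR1 and CXCR2. They were taken by symbol from a count table of 13930 gene symbols, and all 8 had a row. Their levels in these libraries were known when they were chosen, so those levels are given as a description. The samples were endometrial biopsies grouped by their progesterone class at day 4 of the cycle, with 3 libraries of polyadenylated RNA in each of 4 classes. The very low class (titled ANE) lay under 0.25 ng/ml, the high class (HPP4) over 2.5 ng/ml and the very high class (SO) over 20 ng/ml. The low class (LPP4) lay under 1.4, a bound its labels give in mg/dl. The labels do not explain the abbreviations, name no treatment, and do not tie a replicate to a cow, so any p-value measures the spread between these samples, which may be technical.

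S100A8 and S100A9 are small calcium-binding proteins that pair as calprotectin, which starves microbes of zinc and manganese. S100A12 is their relative and a ligand of the receptor AGER. Neutrophils carry all 3 proteins in large amounts, and inflamed epithelium can also make S100A8 and S100A9. LTF, lactoferrin, binds iron and is stored in neutrophil granules and secreted by glandular epithelium, the uterine glands included. SAA3 is an acute phase protein made locally in tissues, and TAP, the tracheal antimicrobial peptide, is a beta-defensin first found in the epithelium of the cow's airway. CXCR1 and CXCR2 are the receptors through which neutrophils follow the chemokine CXCL8.

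The libraries held 3772564 to 8379489 counted reads, and 10959 genes had enough counts to be tested. The smallest library was very low replicate 2, and the other 11 libraries held at least 6952815 reads. Tissue make-up differed between libraries. The 13 measured smooth muscle markers summed to 752 to 2172 CPM (read counts per library size, scaled by the TMM method) in the low class and in 2 very low libraries, replicates 2 and 3. The upper 6 libraries, those of the high and very high classes, had 15650 to 39066 CPM. Very low replicate 1 had 93296 CPM, which also had the lowest sum of the 11 measured epithelial markers (229 CPM against 1249 to 6290 CPM in the other 11 libraries). In bulk tissue, fewer cells of a type and less RNA per cell cannot be told apart, here and in all that follows.

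The 3 calgranulin genes were high in every low library and in a single very low library. S100A8 stood at 166, 84.2 and 118 CPM in low replicates 1, 2 and 3, and at 13.8, 502 and 11.7 CPM in the very low ones. It had 3.49, 10.5 and 15.6 CPM in the high class and 23.1, 16.0 and 14.1 CPM in the very high class. All 3 low libraries thus lay above all 6 libraries of the upper classes, and very low replicate 2 lay above every other library, while very low replicates 1 and 3 sat among the upper classes.

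S100A9 had 200.5, 82.5 and 39.7 CPM in the low class and 9.54, 512 and 17.0 CPM in the very low class. In the high class it had 8.72, 9.05 and 19.6 CPM, and in the very high class 21.9, 8.23 and 11.3 CPM. The low libraries again lay above all 6 upper ones, with a 5.05-fold spread among them where S100A8 had 1.98-fold. S100A12 had 310.4, 366 and 565 CPM in the low class, with its highest value in replicate 3, where S100A9 was lowest. In the very low class it had 72.5, 2262 and 41.5 CPM. In the upper classes it ran from 20.4 CPM in high replicate 1 through a median of 54.0 CPM to 95.1 CPM in high replicate 3. The number of S100A12 reads per S100A8 read ran from 1.87 in low replicate 1 to 6.11 in high replicate 3, and that of S100A9 reads per S100A8 read from 0.336 in low replicate 3 to 2.50 in high replicate 1, which had 26 S100A8 and 65 S100A9 reads.

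**Figure D1:**
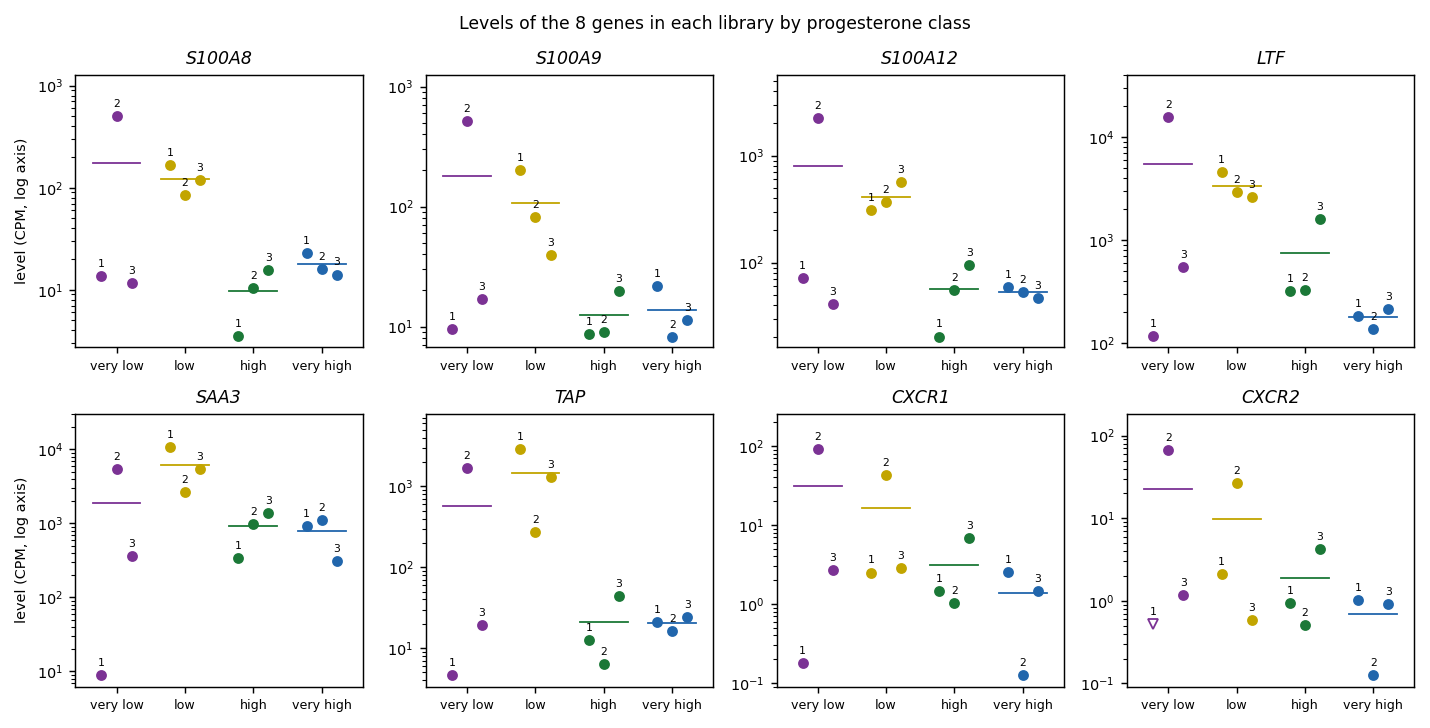
Level of each of the 8 genes (CPM, log axis) in each library, by class, with the replicate number beside each point and a line at the class mean. Very low replicate 2 lies far above its class in all 8 panels, the 3 low libraries lie above the 6 upper ones in every panel but those of CXCR1 and CXCR2, and the open triangle marks the 0.530 CPM that 0 reads of CXCR2 allow in very low replicate 1.

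LTF was high in the same 4 libraries. It had 4556, 2906 and 2595 CPM in the low class, and 116, 15745 and 547 CPM in the very low class. In the high class it had 322, 324 and 1612 CPM, and in the very high class 181, 138 and 215 CPM. LTF was the 1 gene of the 8 whose very high libraries all lay below all high libraries, as 3.89% of tested genes did. In very low replicate 2 it took 1.62% of all counted reads (95% exact binomial interval 1.60 to 1.63%), and in very high replicate 2 it took 0.0150% (0.0142 to 0.0159%). Such intervals cover counting error only.

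SAA3 reached its highest level in low replicate 1. It had 10629, 2695 and 5446 CPM in the low class, 8.84, 5376 and 366 CPM in the very low class, 342, 986 and 1403 CPM in the high class and 928, 1121 and 313 CPM in the very high class. The low libraries lay above the upper 6 again, the lowest of them at 2695 CPM and the highest upper library, high replicate 3, at 1403 CPM. The gene table lists SAA3 as a synonym of a further copy, M-SAA3.2, and the sources used here do not state how reads shared by the copies were assigned, so the value of either copy is uncertain. M-SAA3.2 had 14969, 2885 and 8104 CPM in the low class and 419 to 2754 CPM in the upper 6 libraries. The number of SAA3 reads per M-SAA3.2 read was not constant. It was 0.229 in very low replicate 3, 0.672 to 0.934 in the low class and 2.21 in very high replicate 1. Together the copies took 2.62% of counted reads in low replicate 1 (95% exact binomial interval 2.61 to 2.63%) and 0.00287% (0.00251 to 0.00327%) in very low replicate 1.

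TAP had the widest gap between the low and the upper classes. It had 2857, 276 and 1297 CPM in the low class against 12.5, 6.38 and 43.6 CPM in the high class and 21.2, 16.3 and 24.3 CPM in the very high class. In the very low class it had 4.60, 1701 and 19.4 CPM. The very high libraries lay close together, at 20.6 ± 4.00 CPM (SD, n = 3), whereas the low libraries spread 10.3-fold. TAP belongs to a family of beta-defensin genes of similar sequence, so its count may hold reads of relatives.

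The chemokine receptors did not follow the low class as a whole. CXCR1 had 2.50, 43.2 and 2.89 CPM in the low class and 0.177, 91.9 and 2.73 CPM in the very low class. The high class had 1.48, 1.02 and 6.82 CPM and the very high class 2.52, 0.125 and 1.45 CPM. Low replicate 2 and very low replicate 2 therefore stood apart, and low replicates 1 and 3 lay within the range of the upper classes. CXCR2 had 2.11, 26.5 and 0.579 CPM in the low class, 1.17 CPM in very low replicate 3 and 67.1 CPM in very low replicate 2. It had 0 reads in very low replicate 1, which allows up to 0.530 CPM (3 reads). In the upper classes it ran from 0.125 CPM (1 read) in very high replicate 2 to 4.23 CPM in high replicate 3. CXCR1 and CXCR2 are adjacent paralogs, and the gene table lists CXCR2 among the synonyms of CXCR1, so the split of reads between them is uncertain.

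Put together, 6 of the 8 genes had all 3 low libraries above all 6 high and very high libraries, a separation that 6.12% of tested genes showed in this direction. The exceptions were CXCR1 and CXCR2. The library highest in the gene was very low replicate 2 for 6 of the 8 genes and low replicate 1 for SAA3 and TAP. Over all tested genes, very low replicate 2 was the highest library for 21.6% and low replicate 1 for 4.30%. Since the genes were picked with these levels in view, nothing is read from the differences in share.

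The design asks how the classes of progesterone differ, and 6 pairs of classes can be formed, several of which share a class. No member passed an adjusted p of 0.05 in any pair (edgeR quasi-likelihood test, Benjamini-Hochberg over the 10959 tested genes). Per pair, that threshold was passed by 1.52% of tested genes in very high against very low and by 0% in the other 5 pairs. At an unadjusted p under 0.05, the members counted 0 in low against very low, 4 in high against very low, 7 in very high against very low, 4 in high against low, 5 in very high against low and 0 in very high against high. The shares of all tested genes there were 11.6%, 18.8%, 23.8%, 10.3%, 11.9% and 0.794%. DESeq2 gave no p-value to LTF, S100A12, CXCR1 and CXCR2 in any pair, as to 87 of all tested genes. Of the other 4 members, 0, 3, 3, 2, 1 and 0 passed an adjusted p of 0.05 with DESeq2 in the same order of pairs. The shares of all genes with an adjusted p there were 2.80%, 7.25%, 13.9%, 2.22%, 3.40% and 0%. With DESeq2, TAP was called in 4 of the pairs, S100A8 in 3 and S100A9 in 2, lower in the class with more progesterone each time. All of these genes were called in high and in very high against very low, where very low replicate 2 stood far above its class. Without that library the edgeR log2 fold changes in these pairs were 0.79 and 0.80 for TAP and -0.34 and 0.52 for S100A8. For S100A9 they were -0.08 and 0.09.

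Between the low and the upper classes the differences were large and their standard errors were large too. The log2 fold change of high against low was below 0 for all 8 genes (51.9% of tested genes), with a median of -2.82, beside -0.02 over all tested genes. For 6 of the 8 the libraries did not overlap (9.68% of tested genes were lower with no overlap). The value was -6.15 (SE 1.94) for TAP, -3.64 (SE 1.26) for S100A8, -3.11 (SE 1.29) for S100A9, -2.86 (SE 1.22) for S100A12, -2.78 (SE 1.49) for SAA3 and -2.15 (SE 1.34) for LTF. Very high against low, which shares the low libraries with it, had a median of -3.27, beside -0.01 over all tested genes, with all 8 below 0 (51.1%) and 6 of 8 without overlap (11.1%). LTF moved most between these pairs, at -4.23 (SE 1.47) in very high against low. For CXCR1 and CXCR2 the values of -2.38 (SE 1.75) and -2.36 (SE 1.86) in high against low rested on 1 library, since without low replicate 2 they were 0.19 (SE 1.78) and 0.48 (SE 1.95). In very high against low they then were -0.96 and -0.93, from -3.55 and -3.78.

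Against the very low class, 1 library set the direction of most values. In very high against very low the median of the 8 genes was -4.20, and without very low replicate 2 it was 0.13. In high against very low it went from -3.68 to 0.92. In low against very low it went from -0.72 to 3.38, and all 8 genes then had a log2 fold change above 0, from 2.89 (SE 0.58) for S100A12 to 6.94 (SE 1.33) for TAP. Low replicates 1 and 3 had 2.50 and 2.89 CPM of CXCR1, however, beside 0.177 and 2.73 CPM in very low replicates 1 and 3. For CXCR2 these libraries had 2.11 and 0.579 CPM beside 0 and 1.17 CPM. Very low replicate 1, which stayed in the fit, had 93296 CPM of smooth muscle markers. None of the 8 passed an adjusted p of 0.05 in any pair of that fit either. Their lowest adjusted p (edgeR) was 0.126 in low against very low and 0.0748 in very high against low, the lowest of any pair. Over all tested genes 1 passed in very high against very low and 1 in very high against low. Of the 24 log2 fold changes against the very low class, 17 changed sign when this library was left out. With very low replicate 1 left out instead, the medians kept their sign in these pairs, and LTF passed in very high against very low (log2 -5.50, SE 1.18, edgeR adjusted p = 0.0353). Over all genes, 643 passed in this pair of that fit, beside 167 with all 12 libraries.

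**Figure D2:**
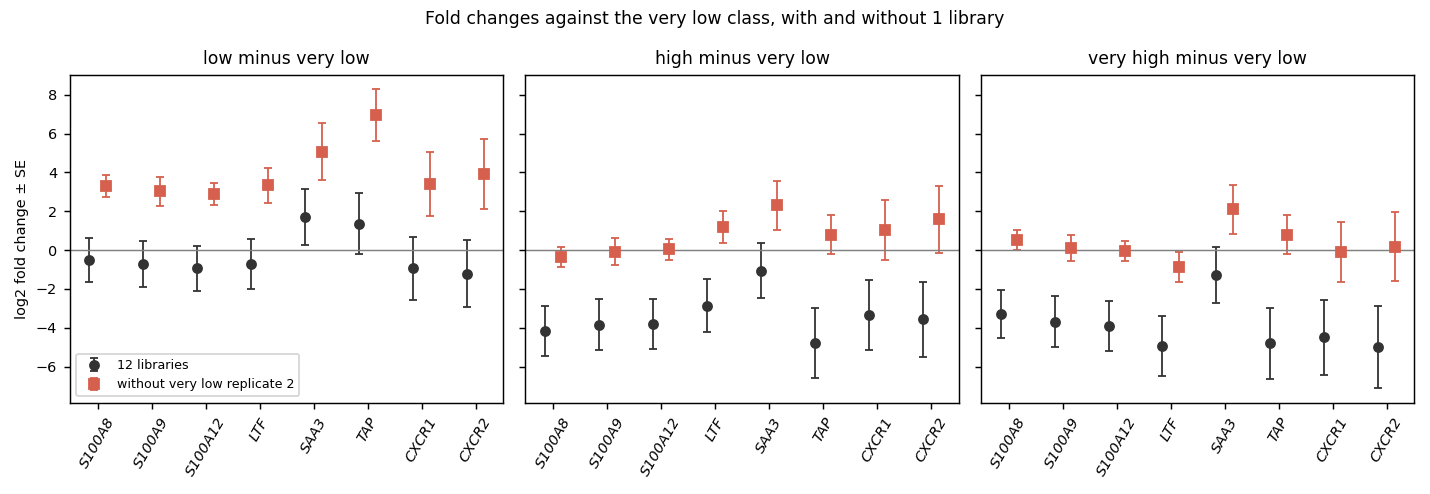
Log2 fold change with its SE of each gene in the low, high and very high class against the very low class, from all 12 libraries and without very low replicate 2. With 12 libraries the values for the upper classes lie between -4.99 and -1.07, and without the library they lie between -0.86 and 2.30.

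The spread between libraries of the same class was wide for all 8 genes. The pooled within-class SD of log2 CPM ran from 1.64 for S100A8 to 2.53 for CXCR2, where the median over tested genes was 0.449, and the members sat between the percentiles 97.0 and 99.7 of all tested genes. By class the SD was 3.05 to 4.62 in the very low class, 0.430 to 2.55 in the low, 0.647 to 1.38 in the high and 0.162 to 1.46 in the very high class. The median tested gene had 0.583, 0.388, 0.252 and 0.239. In the very low class SAA3 spanned 608-fold between replicates 1 and 2, TAP 370.1-fold, LTF 136-fold and S100A8 42.9-fold between replicates 3 and 2. The tightest member was S100A12 in the very high class, with 58.8, 53.0 and 47.0 CPM. In the high class all 8 genes were highest in replicate 3, as were 37.2% of tested genes. In the very low class all 8 were highest in replicate 2, as were 40.8%.

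**Figure D3:**
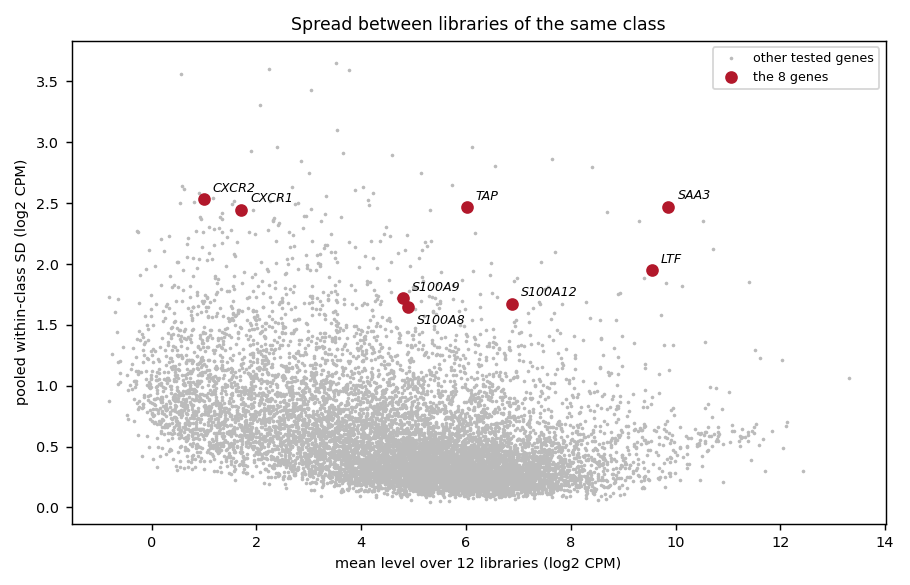
Pooled SD of log2 CPM within the classes against the mean level over the 12 libraries, with 1 point per tested gene and the 8 genes marked. The 8 genes lie along the upper edge, from 1.64 for S100A8 to 2.53 for CXCR2.

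Within the low class the libraries differed in how many reads of the other members came with each CXCR1 read. Low replicate 1 had 1141 TAP reads, 1819 LTF reads and 66.4 S100A8 reads per CXCR1 read, from 19 CXCR1 reads. Low replicate 3 had 448, 896 and 40.8, from 20 CXCR1 reads. Low replicate 2 had 6.39, 67.2 and 1.95, from 338 CXCR1 reads. Very low replicate 2, with 356 CXCR1 reads, had 18.5 TAP, 171 LTF and 5.46 S100A8 reads per CXCR1 read, nearer to low replicate 2 than to the others. SAA3 reads per S100A8 read told these 4 libraries apart less, at 63.9, 46.1, 32.0 and 10.7 in the same order.

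**Figure D4:**
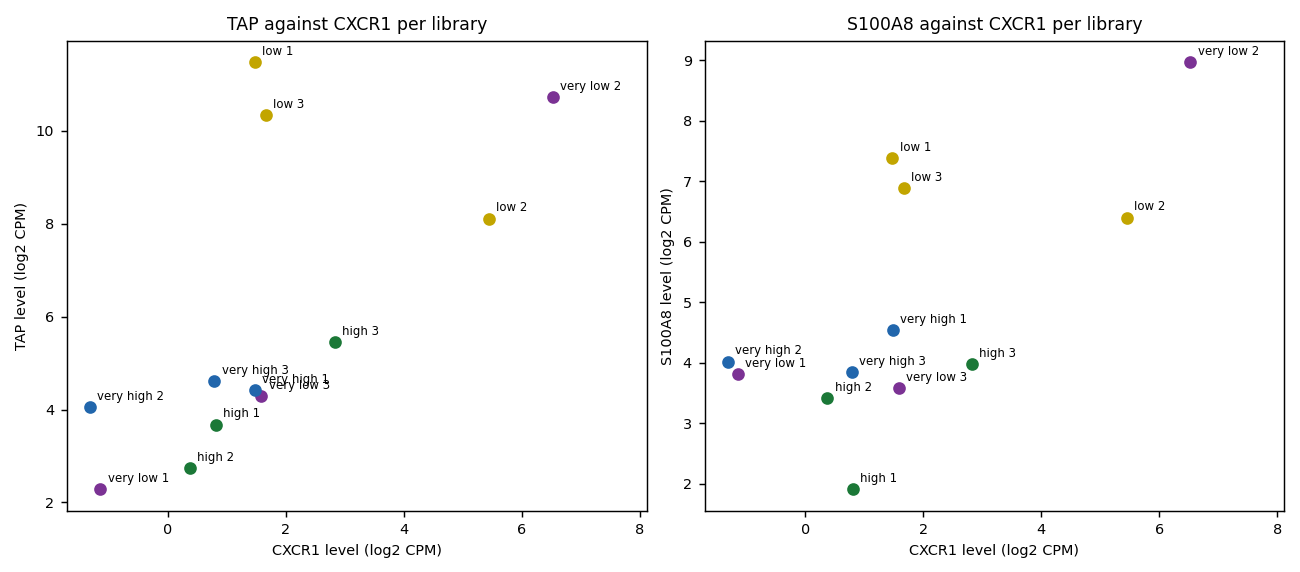
Level of TAP (left) and of S100A8 (right) against that of CXCR1 (log2 CPM), with 1 labelled point per library, coloured by class. Low replicates 1 and 3 combine high TAP and S100A8 with the CXCR1 level of the upper classes, while low replicate 2 and very low replicate 2 are high in both genes of each panel.

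Other genes of neutrophils repeated part of this pattern. Of 44 further neutrophil genes listed, 34 had a row and 22 could be tested. In very high against very low 1 of them fell, the integrin subunit ITGAM (log2 -2.61, SE 0.53, edgeR adjusted p = 0.0415), and none rose. ITGAM had 13.4, 21.9 and 8.19 CPM in the very low class against 1.60, 3.24 and 2.24 CPM in the very high class, so its groups did not overlap (12.2% of tested genes were lower without overlap in this pair). The call held in 7 of 17 alternatives, with adjusted p of 0.000103 (DESeq2) to 0.137 (edgeR without very high replicate 3), and was lost with thinned counts, with the replicate block, and without very low replicate 2, low replicate 1 or any 1 of the upper 6 libraries. It is also carried by macrophages, and the macrophage and dendritic cell markers summed to between 263 and 613 CPM in very low libraries and between 50.7 and 112 CPM in very high ones. Their marker CD68 fell in the same pair (log2 -2.52, SE 0.41, edgeR adjusted p = 0.0333). The part of these cells in the ITGAM result was not tested. In the other 5 pairs none of the 22 passed in edgeR, while DESeq2 called 0 to 8 of 21 there (0 to 7.25% of all genes) and 13 of 21 in very high against very low (13.9%). The median log2 fold change of the 22 was -2.61 in very high against very low, -1.92 in high against very low, -1.61 in high against low and -2.05 in very high against low, beside -0.12, -0.12, -0.02 and -0.01 over all tested genes.

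Of the 22, 9 had all 3 low libraries above all upper 6, as did 6.12% of all tested genes. Among these 9 was VNN2, a surface protein of human neutrophils, with 417, 222 and 509 CPM in the low class, 7.52 to 89.1 CPM in the upper 6 and 2673 CPM in very low replicate 2. The other neutrophil genes described here overlapped with the upper classes. TREM1, an activating receptor of myeloid cells, had 1.19, 11.3 and 1.45 CPM in the low class and 19.6 CPM in very low replicate 2, and GPR84, a receptor for medium-chain fatty acids, had 2.77, 25.6 and 1.16 CPM and 26.6 CPM. FCGR3A, an Fc receptor shared with natural killer cells and macrophages, had 47.8, 24.4 and 85.5 CPM in the low class. The gelatinase MMP9 took another course, at 42.7, 0.256 and 218 CPM in the low class and 75.5 CPM in high replicate 1. Of the genes that neutrophil precursors transcribe, MPO had 0 to 3 reads and ELANE 0 to 2 reads in each library.

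The signals that call and activate neutrophils varied between the same libraries. Of 28 genes listed, 20 could be tested, and none passed in any pair (edgeR). DESeq2 called 0 to 6 per pair, with 6 of 18 in very high against very low (13.9% of all genes). CXCL8, the main ligand of CXCR1 and CXCR2, had 7.64, 43.0 and 6.22 CPM in the low class and 0.884, 78.0 and 2.99 CPM in the very low class. In the high class it had 3.49, 1.02 and 63.2 CPM and in the very high class 2.40, 0.249 and 0.528 CPM. It was thus high in very low replicate 2, high replicate 3 and low replicate 2, which were also the 3 libraries with the most CXCR1. IL1B, which drives the acute phase response, had 133, 104 and 26.9 CPM in these 3 libraries and 0.530 to 8.83 CPM in the other 9. CSF3, the growth factor of neutrophils, was instead high in all 3 low libraries, with 161, 111 and 48 reads there, 370 reads in very low replicate 2 and 0 to 12 in the other 8. IL17A, which induces defensins and CSF3 in epithelium, had 51, 39 and 23 reads in the low class, 58 in very low replicate 2 and 0 to 9 elsewhere. The complement protein C3, whose fragments attract neutrophils, had 2750, 562 and 4778 CPM in the low class and 5573 CPM in very low replicate 2. Very high replicate 1 lay above low replicate 2 in C3, so the low and the upper classes overlapped.

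Antimicrobial genes outside the 8 split by library as well. Of 43 listed, 23 could be tested, and none passed in any pair (edgeR). DESeq2 called 0 to 9 per pair, with 9 of 20 in very high against very low, beside its 13.9% of all genes. Their median log2 fold change was -2.26 in high against low and -2.42 in very high against low. The beta-defensins DEFB13, EBD and DEFB5 had 280.1, 1098 and 204 CPM in low replicate 1, and 48.7, 4.86 and 3.84 CPM in low replicate 2. The beta-defensin LAP ran the other way, with 56.5, 268 and 52.2 CPM in low replicates 1, 2 and 3 and 1182 CPM in very low replicate 2. PIGR, which carries secretory antibodies across epithelium, had 1571, 812 and 635 CPM in the low class, 5164 CPM in very low replicate 2 and 45.9 to 198 CPM in the upper 6 libraries. LBP, which presents bacterial lipopolysaccharide, had 69.3, 63.2 and 28.2 CPM in the low class, 387 CPM in very low replicate 2 and 0.374 to 8.18 CPM in the upper 6. The cathelicidin genes CATHL1 to CATHL6, stored as peptides in neutrophil granules, were listed at 0 in all 12 libraries, and whether the counting could assign reads to them is unknown.

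Receptors and relays of these signals moved less. Of 32 listed, 26 could be tested and none passed in any pair (edgeR). DESeq2 called 0 to 4 per pair, and the 4 of 25 in very high against very low stood beside 13.9% of all genes. Their median log2 fold change was -0.60 in high against low. TLR4, the receptor for lipopolysaccharide, which S100A8 and S100A9 can also engage, had 39.3, 62.1 and 34.0 CPM in the low class and 24.0 to 31.5 CPM in the upper 6 libraries, with 143 CPM in very low replicate 2. AGER, the receptor of S100A12, had a median of 16.9 CPM and a highest value of 23.4 CPM in the low class and 12.7 to 34.2 CPM in the upper 6, so its groups overlapped. STAT3, which relays signals of CSF3 and interleukin 6, had 203 to 255 CPM in the low class, 165 to 223 CPM in the upper 6 and 587 CPM in very low replicate 2.

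**Figure D5:**
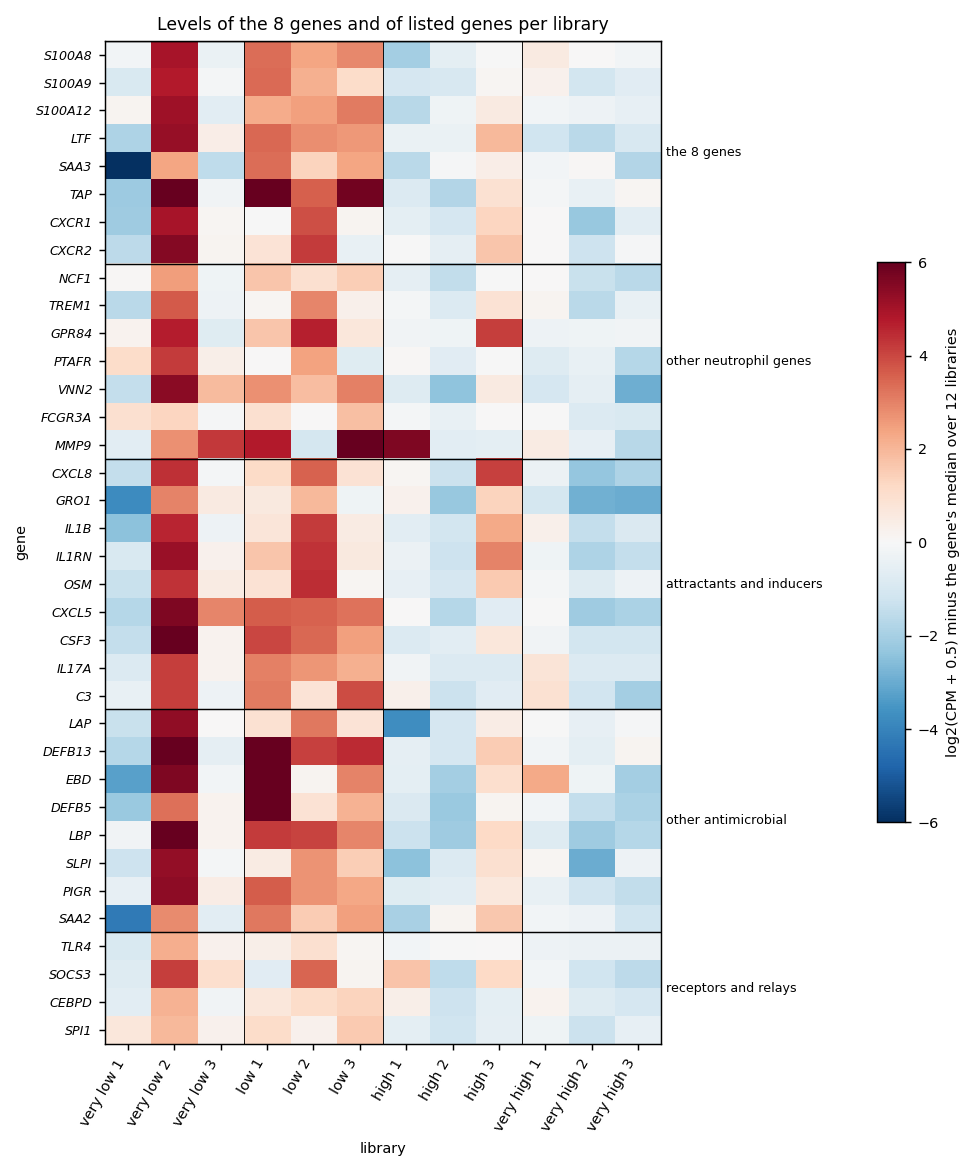
Level of the 8 genes and of listed genes, shown as log2(CPM + 0.5) minus the gene's median over the 12 libraries, with colours clipped at -6 and 6. The shown genes were chosen after their values were seen. Very low replicate 2 is high in nearly every row, and CXCR1, CXCR2, TREM1, CXCL8 and IL1B are higher in low replicate 2 than in low replicates 1 and 3.

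By likeness over the 12 libraries, CSF3 was nearest to the mean log2 CPM of the 8 genes (Pearson r = 0.989), followed by the beta-defensin DEFB13 (0.972), TAGAP, a signalling protein of activated T cells (0.970), IL17F (0.963), SLC9A3R1 (0.962) and DENND2D (0.962). Without very low replicate 2, 5 of these 6 were still among the nearest 6. The genes nearest to S100A8 were DEFB3, TMPRSS4 and WFDC18 (0.950, 0.948 and 0.944), those nearest to LTF were CSF3, PIGR and TFF3 (0.969, 0.957 and 0.953), and those nearest to TAP were DEFB13, WFDC18 and TRAF1 (0.981, 0.957 and 0.953). SAA3 was nearest to SAA2, a further gene of its cluster (0.975), then to SIGIRR and SERTM1 (0.957 and 0.955). CXCR1, added to this search after its values were seen, was nearest to TREM1, TGM3 and IL1B (0.993, 0.984 and 0.972). These values describe libraries that share their classes and tissue make-up, and the likeness rests on few high libraries.

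Among the 8, CXCR1 and CXCR2 ran closest over the 12 libraries (r = 0.979), then S100A8 and S100A12 (0.969), and SAA3 with CXCR2 had the lowest value (0.556). Without very low replicate 2 the first pair had 0.963, the second 0.950 and SAA3 with CXCR2 0.507, and the lowest value was then that of S100A8 with CXCR2 (0.396, from 0.656). In the order of the ARS-UCD2.0 annotation, S100A8, S100A12 and S100A9 follow each other on chromosome 3, and CXCR2 and CXCR1 on chromosome 2. SAA3, SAA2, SAA4 and M-SAA3.2 lie in this order on chromosome 29, with LOC104968478 between SAA3 and SAA2. LTF lies on chromosome 22 and TAP on chromosome 27. Next to these genes, HPS5 beside SAA3 ran from 14.1 to 31.9 CPM over the 12 libraries and ARPC2 beside CXCR1 from 282 to 623 CPM. CCRL2, a chemokine-binding receptor beside LTF, ran from 3.17 to 26.8 CPM. LOC789175, beside TAP, ran from 0 to 19.9 CPM. It had 77 reads in very low replicate 2, 46, 37 and 96 in the low class and 0 to 14 in the other libraries.

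Markers of other cells followed the 8 genes in part. The 11 measured epithelial markers summed to 6290 CPM in very low replicate 2, 1858 to 2978 CPM in the low class and 1249 to 1863 CPM in the upper 6 libraries, with KRT19 at 1175 CPM in very low replicate 2. Very low replicate 3, low in the 8 genes, had an epithelial sum of 2711 CPM, above low replicates 1 and 3. The 14 T and NK cell markers summed to 568, 197 and 524 CPM in low replicates 1, 2 and 3, 571 CPM in very low replicate 2 and 91.0 to 254 CPM in the upper 6. Very low replicates 1 and 3 had 276 and 253 CPM. The macrophage and dendritic cell list had 337, 165 and 605 CPM in the low class and 50.7 to 121 CPM in the upper 6, with C1QA, C1QB and C1QC listed at 0 in every library, where it is likewise unknown whether reads could be assigned to them. Very low replicates 1 and 3 had 284 and 263 CPM of this list, above low replicate 2. The B and plasma cell list, led by JCHAIN, had 2267, 671 and 2890 CPM in the low class, 556, 1671 and 456 CPM in the very low class and 503 to 1280 CPM in the upper 6. Low replicate 2, highest in CXCR1 and CXCR2 of its class, was thus lowest in its class in all 3 leukocyte lists. The endothelial list ran from 285 to 830.1 CPM, and the red blood cell and platelet lists stayed at 2.30 to 12.8 and 9.54 to 42.6 CPM. The part of these cell types in the levels of the 8 genes was not tested.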

How the data were processed

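Biopsy RNA was captured with oligo-dT and sequenced from TruSeq Stranded mRNA libraries, per the labels' protocols. Quality control with FastQC 0.11.2, trimming with Trimmomatic 0.32 and the builds UMD3.1 and bosTau8 are named in the submitters' processing notes. The sources used here give no aligner, counter or strand setting. The authors deposited raw counts of reads per gene symbol, 1 column per sample, unscaled. From these, genes were kept by filterByExpr (count minimum 10), scaled by TMM (factors 0.728 to 1.11) and fitted with edgeR 4.0.16 (R 4.3.3), with 4 class means over 12 libraries and 8 residual degrees of freedom. All 8 members passed the filter, CXCR2 through 4 libraries with at least 10 reads. CPM for all genes use the TMM library sizes, and log2 CPM have a prior count of 2. SE is the log2 fold change over the root of F. Alternatives were RLE scaling, no filter, DESeq2 1.42.0, thinning, a replicate block, plain totals and leaving out each library. The test was checked on simulated data. Named genes were the 8 members, list genes past the threshold, 10 neutrophil and signal genes set by name (CSF3R, LCN2 and MMP8 were not analysed here), the most abundant gene of each list in the library highest in the members, and the nearest genes by correlation. List genes beyond these were named after their values were seen, as was CXCR1 as a search target, and 1 gene wrongly placed in the epithelial list was removed at that stage. The members and lists were chosen with earlier results of these data known. The gene table of ARS-UCD2.0 matched all 8 symbols and gave chromosomes and neighbours, with no coordinates since the builds differ. Levels are not compared between genes per length, since no transcript lengths were used here.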

Additional observations from a re-analysis of the deposited data

How the results depend on the processing

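The counts of genes past an adjusted p of 0.05 depended on the tool and on single libraries. With DESeq2 they were 293 for low against very low, 788 for high against very low, 1510 for very high against very low, 241 for high against low and 370 for very high against low, and 3, 3, 2 and 1 members passed in the last 4 of these pairs in the order given. With edgeR the counts were 0 in all pairs but very high against very low (167), and counts thinned to the smallest library gave 5 for high against very low. Leaving out single libraries gave 0 for very high against high, 0 to 16 for low against very low, 0 to 130 for high against very low, 0 (without very high replicate 1 or 2) to 643 (without very low replicate 1) for very high against very low, 0 to 76 for high against low and 0 to 65 for very high against low, with 0 to 1 members in very high against very low. Of 816 log2 fold changes of members under 17 alternatives, 38 changed sign: 18 without very low replicate 2 and 16 others in very high against high. The genes that changed in that pair had main values of -0.21 to 0.15, apart from CXCR1 (-1.16, and 0.14 without high replicate 3). Same-numbered libraries deviated together in 3 of 18 pairs (correlations -0.30 to 0.29, over 0.1 in those 3), and 4 of 12 libraries correlated best with their own number. With 3 libraries per class, these values cannot tell whether the numbers pair libraries. With the replicate block 0 genes passed in very high against very low. On plain totals 7 of 8 members kept their order of class means. The cause of these changes was not tested. Depth limits CXCR1 and CXCR2 most, with 0 to 22 reads of either in several libraries.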

Other observations

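Very high replicate 1 was the highest of its class in all 20 tested attractant and inducer genes, where 32.5% of tested genes were highest in that library. Among them, CXCL5 had 12.5, 2.49 and 3.03 CPM in the 3 very high libraries, CCL20 had 4.92, 0.125 and 0.132 CPM, and C3 had 584, 142 and 76.0 CPM. Of the 8 members 5 were highest there, S100A8, S100A9, S100A12, CXCR1 and CXCR2.

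High replicate 3, which had the most LTF, SAA3, TAP and CXCR1 of its class, also had 111 CPM of the interleukin 1 antagonist IL1RN against 10.7 and 5.48 CPM in the other high libraries, and 17.9 CPM of GPR84 against 0.403 and 0.383 CPM. Lysozyme genes differed from each other. LYZ had 104, 39.0 and 113 CPM in the low class and 9.95 to 24.8 CPM in the upper 6 libraries, while LYZ1 had 194, 22.8 and 69.2 CPM in the low class and reached 163 CPM in high replicate 3 and 157 CPM in very high replicate 1.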
